A study of Mus musculus with 4 samples.

Results

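The NADPH oxidase subunits and Rac GTPases examined here are 7 genes of the deposited liver table, chosen by symbol out of 22103 entries: *Cybb*, *Cyba*, *Ncf1*, *Ncf4*, *Rac2*, *Rac1* and *Nox4*. All 7 were found, each as a single entry. RNA from whole liver had been sequenced in 2 WT livers and 2 KO livers, 1 mouse per library. The KO mice, called Brg1LKO here, carried floxed *Smarca4* (the gene of the chromatin remodeler Brg1) and the transgene *Alb*-Cre. The paper describes this knockout as specific to hepatocytes, and whole-liver RNA does not show which cells kept the gene. The WT mice were littermates of the KO mice. All 4 were young adult males given alcohol for 15 days on the NIAAA regimen, an ethanol liquid diet that ends with a gavage, so no liver without alcohol was analysed here.

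NADPH oxidases pass electrons from NADPH across a membrane to oxygen and thereby make superoxide. In the oxidase of phagocytes, *Cybb* encodes the catalytic subunit gp91phox and *Cyba* its membrane partner p22phox, while *Ncf1* (p47phox) and *Ncf4* (p40phox) encode cytosolic subunits that join them on activation together with a Rac GTPase. *Rac2* is restricted mainly to blood cells, *Rac1* is expressed in nearly all cells, and *Nox4* encodes a relative of gp91phox that uses p22phox but needs no cytosolic subunits. In liver, Kupffer cells and infiltrating leukocytes hold the phagocyte enzyme, and NOX4 has been described in stellate cells and hepatocytes. In whole liver, fewer cells of a type and less RNA per cell cannot be told apart.

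The values are FPKM, fragment counts divided by the length of the transcript and the total of the library. Levels of different genes can be compared only as far as the transcript length used fits the reads counted, which is not known for *Nox4*. Depth was estimated from the steps of the low values at between 72585753 reads (Brg1LKO replicate 2) and 80920379 reads (WT replicate 1) per library. The targeted gene *Smarca4* was at 1.78 and 1.95 FPKM in WT mice and 0.608 and 0.579 FPKM in Brg1LKO mice, lower in both. No library went against its label. Brg1LKO replicate 2 stood apart for macrophage markers and most general leukocyte markers, but not for neutrophil markers, as described below. The members' log2 fold changes are given with and without Brg1LKO replicate 2. Of 12346 genes tested, 41.0% had their highest level in that liver and 42.1% in WT replicate 2.

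Between the genotypes, 0 of the 6 members tested passed the threshold used here, namely a limma p below 0.05 before adjustment together with a fold change above 2 in either direction, on log2(FPKM + 0.1) of the genes averaging 0.1 FPKM or more. Of all genes tested, 0.980% passed it, 0.437% as higher and 0.543% as lower in Brg1LKO mice. The number of members with an unadjusted p under 0.05 was also 0, against 2.00% of all genes, and each of the 6 had an adjusted p of 1.00 (limma with Benjamini-Hochberg adjustment). This 0 depended on the settings. Some alternatives with all 4 livers gave an unadjusted limma p under 0.05 for *Cyba* (lowest 0.027, replicate number as a block) and *Rac2* (lowest 0.0488, quantile normalization). There both fold changes stayed below 2, and neither adjusted p was under 0.05. All 6 had a positive log2 fold change, with a median of 0.70, where the median of all genes tested was −0.02. These differences rested mostly on Brg1LKO replicate 2, in which *Cybb*, *Cyba*, *Ncf1*, *Ncf4* and *Rac2* were 2.13-fold to 3.71-fold higher than in Brg1LKO replicate 1. Without that liver the median of the members was 0.14, and without Brg1LKO replicate 1 it was 1.32.

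**Figure D1:**
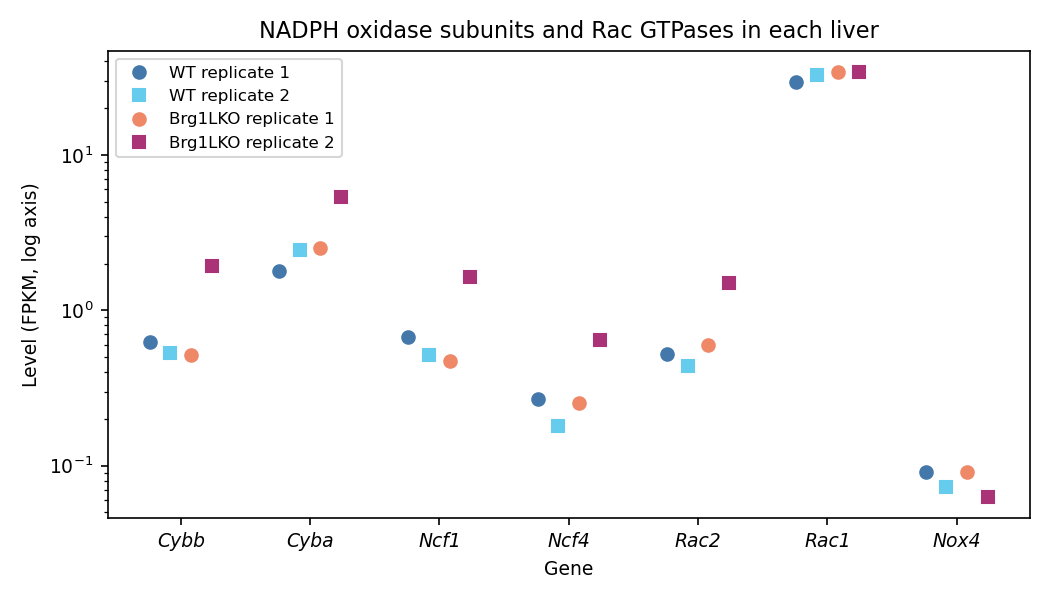
Level of each of the 7 genes in each liver, in FPKM on a log axis, with 1 point per liver. In *Cybb*, *Cyba*, *Ncf1*, *Ncf4* and *Rac2* the point of Brg1LKO replicate 2 lies above the other 3, while *Rac1* stays between 29.4 and 34.2 FPKM and *Nox4* below 0.1 FPKM.

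Ordered by their mean over the 4 livers, *Rac1* was highest at 32.6 ± 2.24 FPKM (SD, n = 4), followed by *Cyba* at 3.03 ± 1.59 FPKM. *Cybb* (0.897 ± 0.683 FPKM), *Ncf1* (0.824 ± 0.547 FPKM) and *Rac2* (0.766 ± 0.498 FPKM) came next. *Ncf4* was at 0.336 ± 0.207 FPKM, and within each liver its level was 0.333 to 0.490 times that of *Cybb*. *Nox4* was lowest at 0.0798 ± 0.0139 FPKM. Each SD is a spread between livers and does not judge a difference between genes, all measured in the same 4 livers.

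The upstream sequences of members that were high together in Brg1LKO replicate 2, with *Nox4* for contrast, are shown from the RefSeq promoter table (GRCm38.p6), which held 4 of the 7 members. They are the 120 bases before the start that RefSeq gives, 5′ to 3′ on the strand of the gene. Capitals mark the motifs CCAAT (the CCAAT box) and GGAA (the core bound by ETS factors such as PU.1, a regulator of myeloid genes) on either strand, where they read ATTGG and TTCC.
*Cybb*, chrX:9469325-9469444, minus strand: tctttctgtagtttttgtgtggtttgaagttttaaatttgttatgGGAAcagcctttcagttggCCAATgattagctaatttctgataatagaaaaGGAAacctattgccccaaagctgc
*Ncf1*, chr5:134229626-134229745, minus strand: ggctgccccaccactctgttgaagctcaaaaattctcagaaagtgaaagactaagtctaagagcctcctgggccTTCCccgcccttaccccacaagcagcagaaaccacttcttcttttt
*Cyba*, chr8:122432941-122433060, minus strand: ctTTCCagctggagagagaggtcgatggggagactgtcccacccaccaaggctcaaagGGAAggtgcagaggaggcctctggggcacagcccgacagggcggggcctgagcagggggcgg
*Nox4*, chr7:87246529-87246648, plus strand: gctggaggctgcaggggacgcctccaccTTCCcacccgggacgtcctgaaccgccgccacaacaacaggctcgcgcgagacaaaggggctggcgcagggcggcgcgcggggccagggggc

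*Cybb* alone among the 4 held a CCAAT, which started 56 bases before the start, and it held 2 GGAA, at 75 and 24 bases before the start. *Cyba* held 2 GGAA, and *Ncf1* and *Nox4* held 1 each. Of all 32851 promoters in the table, 21.3% held CCAAT and 73.4% held GGAA in the same window. The longer motif GAGGAA, which contains GGAA, was searched on both strands and occurred in 0 of the 4 and in 11.6% of all promoters. These matches describe letters only.

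The catalytic and membrane subunits were examined first. *Cybb*, listed under ENSMUST00000015484 with 13 exons, spans 9435252 to 9469324 of chromosome X (genome build GRCm38, minus strand). Its upstream sequence is the one with the CCAAT. Its level was 0.621 and 0.529 FPKM in WT mice and 0.517 and 1.92 FPKM in Brg1LKO mice, from an estimated 239, 201, 192 and 662 reads. Brg1LKO replicate 1 was the lowest of the 4 livers and Brg1LKO replicate 2 the highest, so the groups overlapped. WT mice averaged 0.575 ± 0.0651 FPKM (SD, n = 2), and Brg1LKO mice 1.22 ± 0.991 FPKM (SD, n = 2), so the spread among Brg1LKO mice exceeded the difference of the means. The log2 fold change was 0.73 (standard error 0.47, 95% interval −0.28 to 1.74), and it was −0.13 without Brg1LKO replicate 2.

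*Cyba* spans 122424776 to 122432930 of chromosome 8, minus strand (ENSMUST00000017604, 6 exons). It was at 1.79 and 2.44 FPKM in WT mice and at 2.51 and 5.36 FPKM in Brg1LKO mice. Both Brg1LKO livers were above both WT livers, but Brg1LKO replicate 1 exceeded WT replicate 2 by less than the WT livers differed from each other. The log2 fold change was 0.78 (standard error 0.40, 95% interval −0.07 to 1.64), and it was 0.25 without Brg1LKO replicate 2. A gene on the opposite strand, *Gm20388*, overlaps *Cyba* in the annotation. Both subunits form 1 membrane complex in phagocytes, and the ratio of the *Cyba* level to the *Cybb* level was 2.89 and 4.62 in WT mice and 4.87 and 2.79 in Brg1LKO mice. This ratio was lowest in Brg1LKO replicate 2, where both genes were highest, and nearly as low in WT replicate 1, where *Cyba* was lowest.

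Among the cytosolic subunits, *Ncf1* encodes the organiser whose phosphorylation starts assembly. It spans 134220260 to 134229625 of chromosome 5, minus strand (ENSMUST00000144086, 10 exons). Its full annotated gene, 134220053 to 134229625, is overlapped by *Gtf2ird2* on the opposite strand. Its level was 0.673 and 0.517 FPKM in WT mice and 0.470 and 1.63 FPKM in Brg1LKO mice. As with *Cybb*, the Brg1LKO livers held both the lowest and the highest value. The log2 fold change was 0.53 (standard error 0.46, 95% interval −0.46 to 1.52), and it was −0.28 without Brg1LKO replicate 2.

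*Ncf4*, which encodes a subunit that binds a phosphoinositide of phagosome membranes, spans 78244801 to 78262580 of chromosome 15, plus strand (ENSMUST00000096357, 10 exons). It was at 0.270 and 0.180 FPKM in WT mice and 0.253 and 0.640 FPKM in Brg1LKO mice, from an estimated 32, 21, 29 and 68 reads. Brg1LKO replicate 1 lay between the WT livers. The 95% interval of the read count in Brg1LKO replicate 2 reached down to 0.497 FPKM, above the upper bounds of the other livers, which were at most 0.381 FPKM (exact Poisson intervals, counting error only). The log2 fold change between the groups was 0.67 (standard error 0.41, 95% interval −0.22 to 1.55), and it was 0.14 without Brg1LKO replicate 2. Relative to *Cybb*, the level of *Ncf1* stayed between 0.852 and 1.08 in the 4 livers and that of *Ncf4* between 0.333 and 0.490.

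*Rac2*, the GTPase of blood cells, spans 78559167 to 78572783 of chromosome 15, minus strand (ENSMUST00000043214, 7 exons). Its level was 0.521 and 0.441 FPKM in WT mice and 0.594 and 1.51 FPKM in Brg1LKO mice. Both Brg1LKO livers were above both WT livers. *Rac2* had the largest log2 fold change of the members, 0.87 (standard error 0.41, 95% interval −0.02 to 1.75), and it was 0.26 without Brg1LKO replicate 2.

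*Rac1* spans 143505482 to 143527993 of chromosome 5, minus strand (ENSMUST00000100489, 7 exons). Its full annotated gene, 143503634 to 143528036, is overlapped by *Daglb* and *Gm42502* on the opposite strand. It was at 29.4 and 32.7 FPKM in WT mice and at 34.2 and 34.0 FPKM in Brg1LKO mice. The Brg1LKO livers were both higher, by less than the difference between the WT livers in the nearest pair. The log2 fold change was 0.14 (standard error 0.32, 95% interval −0.55 to 0.83) and stayed between 0.06 and 0.22 with each liver left out in turn. The level of *Rac1* was 56.4 and 74.1 times that of *Rac2* in WT mice, and 57.6 and 22.6 times in Brg1LKO mice. Counted over the 7 members, both Brg1LKO values lay above both WT values in 3, *Cyba*, *Rac2* and *Rac1*, and in 0 did both lie below. Over all genes tested these shares were 10.7% and 10.0%.

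*Nox4* was at 0.0914 and 0.0734 FPKM in WT mice and at 0.0913 and 0.0632 FPKM in Brg1LKO mice, from an estimated 29, 23, 28 and 18 reads. Its mean was under the filter of 0.1 FPKM, so it was the 1 member not tested. The groups overlapped, and so did the exact Poisson intervals of the 4 livers, which together ran from 0.0375 to 0.132 FPKM. No liver thus stood apart beyond counting error, though overlap of intervals is not a test of the groups. Without the filter, the log2 fold change was −0.04 (95% interval −0.47 to 0.38). The entry carries ENSMUST00000127138, annotated in GENCODE M21 as a retained intron transcript of 5 exons on chromosome 7 from 87246649 to 87308212. At the length of that transcript, 3921 bases, the 4 values came out as 29.0, 23.0, 28.0 and 18.0 reads, so the FPKM had been divided by that length. Whether the reads were counted on that transcript or on the whole gene is not given in the sources used here.

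**Figure D2:**
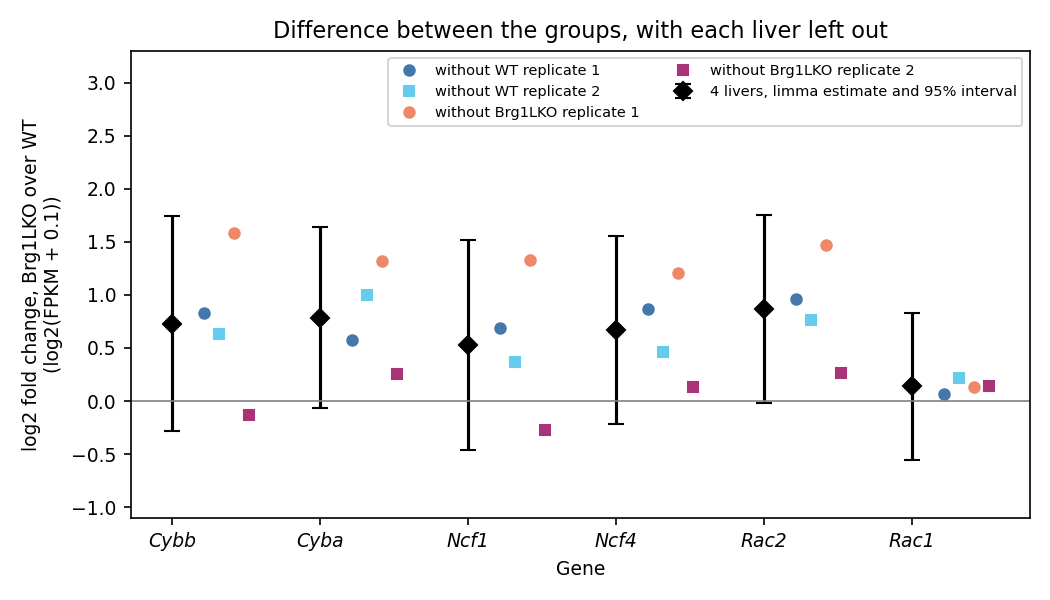
Log2 fold change of Brg1LKO over WT on the log2(FPKM + 0.1) scale for the 6 members tested, with the limma estimate and its 95% interval (black diamonds) and the estimate with each liver left out (coloured points). Every interval includes 0, and the estimates without Brg1LKO replicate 2 are the lowest for 5 genes, at −0.13 for *Cybb* and −0.28 for *Ncf1*.

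The dependence on single livers was the same in direction for 5 members. When Brg1LKO replicate 1 was left out, so that Brg1LKO replicate 2 alone stood for the genotype and was assumed to vary like the WT livers, 5 of 6 members passed the threshold (*Cybb* with a log2 fold change of 1.58, *Rac2* 1.47, *Ncf1* 1.33, *Cyba* 1.32 and *Ncf4* 1.20), where 4.47% of all genes did. When Brg1LKO replicate 2 was left out, 0 passed, against 3.64% of all genes, and *Cybb* and *Ncf1* were slightly lower in the remaining Brg1LKO liver. Over all settings tried, the adjusted p ran from 0.00235 to 1.00 for *Cybb* and from 0.00597 to 1.00 for *Rac2*, the lowest values being those without Brg1LKO replicate 1. Among all genes tested, 13.8% were at least 2-fold higher in Brg1LKO replicate 2 than in Brg1LKO replicate 1.

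Of the other oxidase genes, 11 were listed and 4 had a mean that allowed a test, of which 0 passed the threshold in either direction. *Cybc1*, whose product is needed for the gp91phox protein to accumulate, was at 2.36 and 4.002 FPKM in WT mice and 2.05 and 4.53 FPKM in Brg1LKO mice (log2 fold change −0.01), so both replicates numbered 2 were higher. *Noxo1*, an organiser for NOX1, was at 0.944 and 1.13 FPKM in WT mice and at 0.823 and 0.825 FPKM in Brg1LKO mice, both lower (log2 fold change −0.29, standard error 0.34). *Nox1*, the catalytic subunit it serves, had 0.212 and 0.137 FPKM against 0.0799 and 0.161 FPKM, and *Noxa1*, an activator for NOX1, had 0.0535 and 0.155 FPKM against 0.0237 and 0.213 FPKM, with overlapping groups in both.

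*Rac3*, the third Rac gene, had 1 to 11 estimated reads per liver. *Nox3*, *Duox1*, *Duoxa1* and *Duoxa2* were listed at 0 in all 4 livers, and *Duox2* had an estimated 2 reads in Brg1LKO replicate 2 only. A listed 0 still leaves room for an expected count of about 3 reads.

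Regulators of Rac and of oxidase assembly included exchange factors, GDP dissociation inhibitors and protein kinase C genes. Of 24 listed, 18 were tested and 0 passed the threshold, and the median log2 fold change was 0.05 (0.20 without Brg1LKO replicate 1). The highest was *Dock2*, a Rac exchange factor of leukocytes, at 0.0945 and 0.0937 FPKM in WT mice and 0.0998 and 0.333 FPKM in Brg1LKO mice (log2 fold change 0.60, standard error 0.42, and 0.04 without Brg1LKO replicate 2). The lowest was *Rhog*, a small GTPase upstream of Rac (−0.24), and the most abundant was *Arhgdia*, a GDP dissociation inhibitor that keeps Rac and related GTPases in the cytosol (−0.07). *Dock2* thus had the same high liver as the phagocyte subunits, and *Rhog* and *Arhgdia* were highest in WT replicate 2.

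Enzymes that remove superoxide and hydrogen peroxide, the products of the oxidases, were abundant, and 0 of 13 tested passed the threshold (median log2 fold change −0.04). The largest value was that of *Sod2*, the mitochondrial superoxide dismutase, at 9.78 and 10.4 FPKM in WT mice and 18.3 and 8.16 FPKM in Brg1LKO mice (0.27), so the Brg1LKO livers held both extremes. *Sod1*, the cytosolic dismutase, was lowest at −0.21, and *Cat*, which encodes catalase and was the most abundant, was at 226 and 309 FPKM in WT mice and 265 and 288 FPKM in Brg1LKO mice. Transcription factors of phagocytes showed 0 of 7 past the threshold (median log2 fold change −0.01, and 0.07 without Brg1LKO replicate 1). *Spi1*, which encodes PU.1, came nearest, at 0.328 and 0.406 FPKM in WT mice and 0.491 and 1.08 FPKM in Brg1LKO mice (log2 fold change 0.84, standard error 0.40, and 0.34 without Brg1LKO replicate 2). *Cebpa*, a factor of hepatocytes and myeloid cells, was lowest at −0.43.

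Markers of the cell types that hold these genes were set beside the members. Of 11 macrophage markers, all were highest in Brg1LKO replicate 2, as were 41.0% of all genes tested. Their summed level was 48.8 and 49.9 FPKM in WT mice and 63.2 and 139 FPKM in Brg1LKO mice. The markers past the threshold numbered 3, all higher in Brg1LKO livers: *Cd68* (log2 fold change 1.47), *Cd5l* (1.21) and *Vsig4* (1.00). Of all genes tested, 0.437% passed as higher. With all 4 livers the number of these markers past the threshold was 1 after quantile normalization and with no filter on low values. The median log2 fold change of the 11 markers was 0.84. It was 1.39 without Brg1LKO replicate 1 and 0.25 without Brg1LKO replicate 2. Without Brg1LKO replicate 2, the log2 fold change was 1.05 for *Cd68*, 0.25 for *Cd5l* and 0.15 for *Vsig4*. *Timd4*, a marker of resident Kupffer cells, was lowest at 0.56, and *C1qa*, a complement gene, was the most abundant. Of 9 general leukocyte markers, 7 were highest in Brg1LKO replicate 2, with a summed level of 12.0 and 13.7 FPKM in WT mice and 16.8 and 27.5 FPKM in Brg1LKO mice. *Laptm5*, a lysosomal gene of blood cells, was the 1 marker of this list past the threshold (1.07), and the count was 0 without Brg1LKO replicate 2 or WT replicate 1, 2 without WT replicate 2 and 4 without Brg1LKO replicate 1. The lowest was *Itgam*, the integrin chain CD11b of monocytes and neutrophils (−0.06), with 0.186 and 0.189 FPKM in Brg1LKO mice against 0.193 and 0.206 FPKM in WT mice. The part of cell numbers in the levels of the members was not tested.

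**Figure D3:**
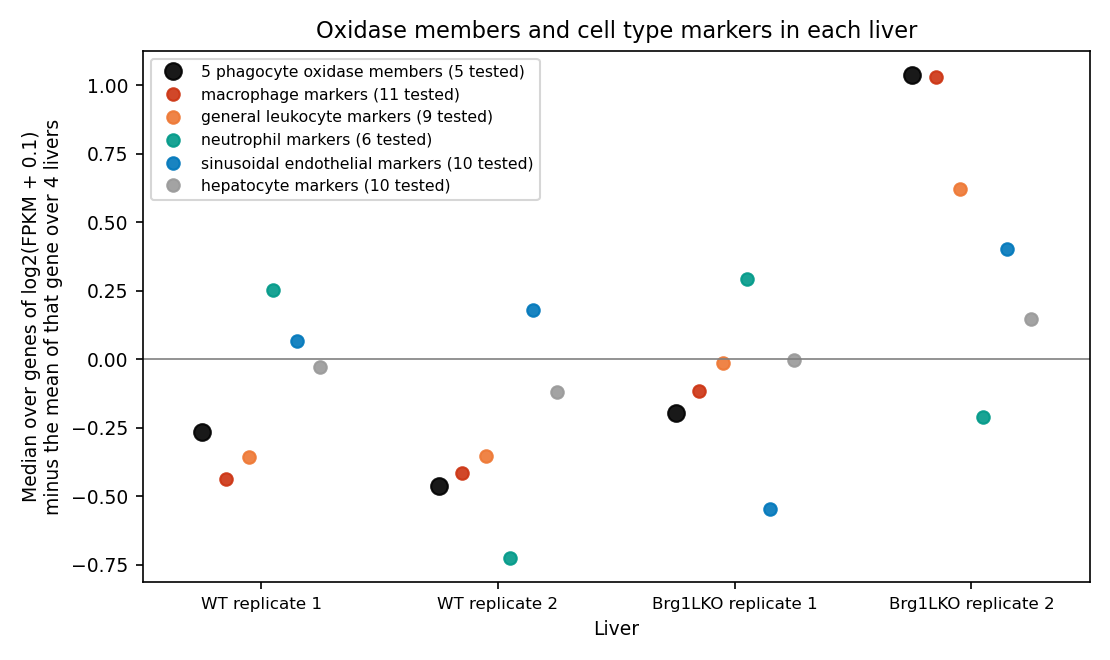
Median over the tested genes of each list of log2(FPKM + 0.1) minus the mean of the same gene over the 4 livers, for each liver. In Brg1LKO replicate 2 the 5 phagocyte oxidase members (black) stand at 1.04 and the macrophage markers (red) at 1.03, while the neutrophil markers (green) stand at −0.21.

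The summed level of *Cyba*, *Cybb*, *Ncf1*, *Ncf4* and *Rac2* was 3.88 and 4.11 FPKM in WT mice and 4.35 and 11.1 FPKM in Brg1LKO mice. Divided by the summed level of the macrophage markers, it was 0.0794 and 0.0824 in WT mice and 0.0688 and 0.0793 in Brg1LKO mice. Brg1LKO replicate 1 had the lowest ratio and WT replicate 2 the highest, while Brg1LKO replicate 2, with the highest oxidase sum, was close to WT replicate 1. Divided by the general leukocyte markers, the sum was 0.324 and 0.300 in WT mice and 0.259 and 0.403 in Brg1LKO mice, with Brg1LKO replicate 2 the highest. An exact two-sided permutation test cannot go below p = 0.333 in this design, and no test of these ratios was made.

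**Figure D4:**
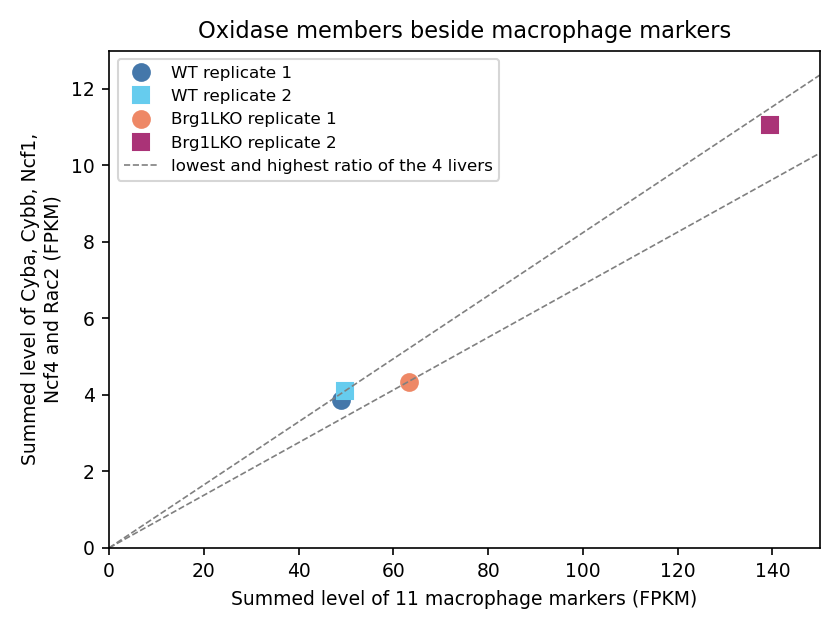
Summed FPKM of 5 phagocyte oxidase members against the summed FPKM of 11 macrophage markers, 1 point per liver, with dashed lines at the lowest (0.0688) and the highest (0.0824) ratio. Brg1LKO replicate 2 lies at 139 and 11.1 FPKM, and the other 3 livers at 48.8 to 63.2 and 3.88 to 4.35 FPKM.

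Neutrophils also hold the phagocyte oxidase. Of their 12 markers listed, 6 were tested and 0 passed the threshold. Their median log2 fold change was 0.28, and with each liver left out it ran from −0.11 to 0.75. The summed level was 11.8 and 4.50 FPKM in WT mice and 16.8 and 8.35 FPKM in Brg1LKO mice, higher in the replicates numbered 1. *S100a9*, which makes up most of that sum, was at 8.64 and 2.99 FPKM in WT mice and 12.3 and 6.10 FPKM in Brg1LKO mice (log2 fold change 0.76), and *Retnlg* was lowest at −0.21. The defining marker *Ly6g* had at most 4 estimated reads in any liver. The ratio of the oxidase sum to the neutrophil marker sum ran from 0.259 in Brg1LKO replicate 1 to 1.32 in Brg1LKO replicate 2.

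The other cell types of the liver were described in the same way. Of 10 sinusoidal endothelial markers, 0 passed the threshold (3 without Brg1LKO replicate 2), 6 were highest in Brg1LKO replicate 2 and the summed level was 35.8 and 38.0 FPKM in WT mice and 27.4 and 40.0 FPKM in Brg1LKO mice. *Oit3* was lowest (−0.50), *Ehd3* highest (0.22), and *Pecam1* the most abundant (−0.35). Of 10 stellate cell markers, 0 passed and 1 was highest in Brg1LKO replicate 2. Their log2 fold changes ran from −0.45 for *Lrat* to 0.43 for *Col3a1*, with −0.08 for the most abundant, *Ecm1*. Of 10 hepatocyte markers, 0 passed, with *Alb*, the most abundant, at 0.08, *Fga* highest at 0.47 and *Serpina1a* lowest at −0.27, so the labelled tissue carried its defining genes at high levels in every liver.

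Genes with the nearest profile over the 4 livers were named by the root mean square distance of log2 values centred on each gene, among genes averaging 1 FPKM or more. For *Cybb* these were *Mnda* (distance 0.03), *Pdia3* (0.05) and *Isg15* (0.09), and 27 of 7733 genes lay within a distance of 0.2. *Pdia3*, which encodes an endoplasmic reticulum disulphide isomerase, was at 27.7 and 24.6 FPKM in WT mice and 22.5 and 73.2 FPKM in Brg1LKO mice. For *Nox4*, whose profile was almost flat, near profiles included *Il4ra* (0.02) and *Bcl3* (0.03), and 1259 genes lay within the same distance. A profile of 4 livers is a description and carries no test.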

How the data were processed

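RNA-seq of whole liver was available for 2 WT and 2 Brg1LKO mice (labelled KO). According to the methods, the authors used Trimmomatic for trimming, HISAT2 for alignment (GRCm38) and Cufflinks for FPKM, while the submitters' processing notes list HISAT2 2.0.4 and StringTie 2.1.4. The methods describe a stranded Illumina kit and the labels a BGIseq protocol. Whether counting used strand is not given in the sources used here. The deposited FPKM carry no stated scaling between libraries, so a change in abundant genes shifts the others.

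Transcript lengths, positions and types came from GENCODE M21, which held 98.6% of the identifiers, and 2 listed genes (*Adgre1*, *Cybc1*) stood under older symbols. Library totals were estimated from transcripts of at least 2000 bases, whose values of up to 20 reads lay within 0.1 of a whole read in 88.4% to 89.6% of cases. Reads per gene are therefore estimates, and their intervals cover counting error only.

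Genes averaging 0.1 FPKM or more were tested with limma 3.58.1 (R 4.3.3, lmFit and eBayes with trend) on log2(FPKM + 0.1), with Benjamini-Hochberg adjustment over all 12346. Fold changes on this scale understate those of low genes. The procedure was tested on simulated data. Each fit was repeated leaving out 1 liver at a time, with the replicate number as a block, without the trend in eBayes, after quantile normalization or median-ratio rescaling, without the filter or with it at 1 FPKM, and with pseudocounts of 0.01 and 1. P-values, standard errors and intervals rest on the spread between these 4 livers, which eBayes moderates toward a trend over all genes tested. For a single gene they can therefore be narrower or wider than its own livers alone would give. The named genes are the members, *Smarca4*, all other oxidase subunits, from each further list the genes past the threshold, the highest and lowest log2 fold change and the most abundant, and the 3 nearest profiles to *Cybb* and *Nox4*, of which 2 genes are not reported here. The members and lists were chosen with earlier results of these data known. *Gm20388*, *Gtf2ird2*, *Daglb* and *Gm42502* are named only as overlapping genes. *Csf1r* is named only for the ratio of *Cybb* to it, and *Adgre1* only for that ratio and its older symbol. Figures were drawn with matplotlib 3.10.9 in Python 3.11.15.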

Additional observations from a re-analysis of the deposited data

How the results depend on the processing

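The number of members past the threshold was 0 under 11 of the 12 alternatives, and with each liver left out it ranged from 0 to 5. Their median log2 fold change ranged from 0.14 to 1.32 with each liver left out. That of *Cybb* ranged from −0.13 to 1.58 and that of *Ncf1* from −0.28 to 1.33, and in both the sign turned without Brg1LKO replicate 2. Over all genes 121 passed the threshold, against 18 for a pseudocount of 1, 80 for no filter on low values, 68 for the filter at 1 FPKM (fewer genes tested), and from 78 to 552 with each liver left out (231 without WT replicate 1, 78 without WT replicate 2, 552 without Brg1LKO replicate 1, 450 without Brg1LKO replicate 2). Genes with an adjusted p under 0.05 numbered 0 as reported, where 247 had an unadjusted p under 0.05, and were 2 with the filter at 1 FPKM, 269 without Brg1LKO replicate 1 and 140 without Brg1LKO replicate 2. *Smarca4* had a log2 fold change of −1.50, and −0.85 with a pseudocount of 1, no longer past the threshold, which that scale compresses. The ratio of the oxidase sum to the macrophage sum, Brg1LKO over WT, was 0.915 and ranged from 0.850 to 0.980 with each liver left out, an alternative added after the data were seen. The replicate numbers do not pair the livers by any label. With the replicate block, 108 genes and 0 members passed, and the correlation across genes of the replicate differences in both groups was 0.03. For the remaining changes, the cause was not tested.

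*Nox4* was limited by depth, with at most 29 estimated reads per liver, and its entry stands under a retained intron transcript.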

Other observations

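Among the 12 neutrophil markers, 4 granule genes, picked out after their values were seen, had few reads, mostly in Brg1LKO mice. *Camp*, a cathelicidin, had an estimated 5 and 3 reads in Brg1LKO mice, *Ltf*, lactoferrin, 3 and 2, and *Mpo*, myeloperoxidase, 2 and 1, and all 3 were listed at 0 in both WT mice. *Ngp*, a neutrophil granule protein, had 1 and 0 reads in WT mice and 10 and 5 in Brg1LKO mice. Summed over these 4 genes, the estimated reads were 1 and 0 in WT mice and 20 and 11 in Brg1LKO mice. Other granule genes of the same markers differed from this: *Elane*, neutrophil elastase, had 4 and 3 reads in WT mice and 4 and 5 in Brg1LKO mice, and *Mmp8*, a collagenase, 33 and 4 in WT mice and 32 and 15 in Brg1LKO mice. *Cxcr2*, a chemokine receptor, had 31 and 28 reads in WT mice and 29 and 15 in Brg1LKO mice. All values of the 4 genes except that of *Ngp* in Brg1LKO replicate 1 were 5 reads or fewer. A listed 0 still leaves room for an expected count of about 3 reads, and no fold or test is given.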
